A study of Homo sapiens with 3 samples.

Results

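Melanocyte and neural crest state genes are the genes used to place a melanoma cell between a pigmented, melanocyte-like identity and a neural crest-like or undifferentiated one. Here they were 10 genes matched by symbol among the 58037 genes of the count table: MITF, SOX10, SOX9, TFAP2A, TFAP2B and RXRG, which encode transcription factors, and PMEL, MLANA, TYR and DCT, which encode melanosome proteins. Each symbol had 1 row. A375, an established human melanoma cell line, was exposed for 24 h to serum-free DMEM (control), to medium conditioned by young adipocytes (YA) or to medium conditioned by old adipocytes (OA), and poly(A) RNA was sequenced. The conditioned media, called secretomes, came from human subcutaneous preadipocytes differentiated in culture with insulin, dexamethasone, indomethacin and IBMX and then kept in a maintenance medium. Which donors supplied the secretomes of these libraries, and whether they were pooled, is not given in the sources used here. The treatment protocol gives a longer upper end for the exposure than the series description does. Each group had 1 library, so no difference below has a replicate check, no test was run, and each fold compares 2 libraries, not 2 conditions.

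MITF is the transcription factor that directs pigment cell fate, survival and the transcription of melanosome genes. SOX10 is the neural crest factor that switches MITF on and keeps the Schwann and melanocyte lineages, and SOX9 is its close relative. TFAP2A and TFAP2B belong to the AP-2 factors, which specify neural crest cells, and TFAP2A also works beside MITF at pigmentation genes. RXRG is a retinoid X receptor, a nuclear receptor that pairs with other nuclear receptors, and it is a marker of the neural crest-like melanoma state. PMEL builds the fibrils of the melanosome, MLANA helps PMEL mature, and TYR and DCT are enzymes of melanin synthesis.

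Libraries held between 18089008 counts (OA) and 21448195 (control). Counts were divided by size factors to give normalised counts, and folds are ratios of normalised counts with a 95% Clopper-Pearson interval. Each group had 1 library, so every interval here covers counting error only. Reads carried no molecular identifiers, so copies of a molecule count as separate reads and the intervals may be too narrow. A mean normalised count of at least 20 over the 3 libraries was passed by 14413 genes and by 5 of the 10 members, MITF, SOX9, TFAP2A, TFAP2B and RXRG. MLANA and PMEL lay under it but had enough counts for a fold with a wide interval. TYR, DCT and SOX10 had at most 3 counts in every library, too few for any fold. Of the 4 defining adipocyte markers, ADIPOQ was at 1, 0 and 0 counts in control, YA and OA, LEP at 0 in each, PLIN1 at 2, 5 and 2, and CIDEC at 6, 31 and 36. Some other genes of the adipocyte marker list were well counted, such as PPARG at 1608, 1964 and 1530. Of the 10 listed, all 5 that passed the count minimum exceeded control by 1.2-fold or more in YA, where 17.4% of all genes did. Their median log2 fold was 0.95. Among them, CIDEC passed only through its counts in YA and OA. FABP4, under the minimum, had 16, 15 and 2 counts.

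YA had less of 4 members than control, each by a similar proportion: SOX9 at 0.601 of control, TFAP2B at 0.604, MITF at 0.628 and RXRG at 0.690. OA had TFAP2B at 0.0495 of control and RXRG at 0.0269, while MITF was at 0.860, TFAP2A at 0.982 and SOX9 at 1.00. TFAP2A was within 1.2-fold in every comparison. The pigment genes PMEL, MLANA, TYR and DCT had at most 22 counts in any library. SOX10 was listed at 0 in all 3.

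**Figure D1:**
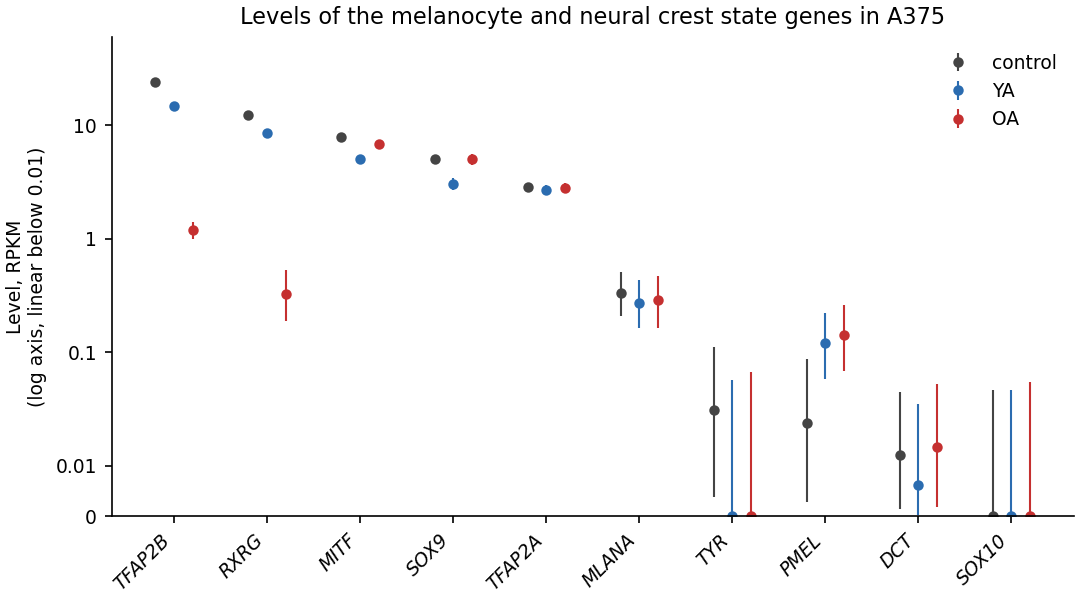
Level of each member in RPKM (counts scaled to the library total, per kilobase of annotated exon; vertical log axis, linear below 0.01) in the control, YA and OA libraries, with 95% exact Poisson intervals as bars. TFAP2B and RXRG sit at 24.1 and 12.2 RPKM in control and at 1.19 and 0.328 in OA, TFAP2A lies between 2.69 and 2.86 in all 3 libraries, and SOX10 is at 0 in each.

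MITF (ENSG00000187098.14) lies at chr3:69739435-69968337 on the plus strand of GRCh38 in GENCODE release 29. The control, YA and OA libraries held 1221, 764 and 881 of its reads, which gave normalised counts of 1151, 722 and 989. The control library was the highest and the YA library the lowest. The fold of YA over control was 0.628 (95% counting interval 0.573 to 0.688), and that of OA over control was 0.860 (0.787 to 0.938), within the 1.2-fold used for calls. The fold of YA over OA was 0.730 (0.662 to 0.805). The gene has several promoters, and a count per gene cannot tell the transcripts from each apart, including the melanocyte form.

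SOX9 (ENSG00000125398.5), at chr17:72121020-72126420 on the plus strand, had 422, 253 and 355 counts in control, YA and OA, or normalised counts of 397.6, 239 and 398.5. Control and OA were level, with a fold of 1.00 (0.868 to 1.16), and the YA library was the lower one. The fold of YA was 0.601 (0.513 to 0.704) over control and 0.600 (0.509 to 0.707) over OA.

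TFAP2A (ENSG00000137203.10), at chr6:10393186-10419659 on the minus strand, had 507, 475 and 418 counts in control, YA and OA. The libraries were close once scaled: the fold was 0.94 (0.827 to 1.07) for YA over control, 0.982 (0.861 to 1.12) for OA over control and 0.957 (0.837 to 1.09) for YA over OA. Of its 8274 exon bases, 438 are shared with the antisense gene TFAP2A-AS1, which had 11, 19 and 3 counts, and 941 with TFAP2A-AS2, which has no row in the table. The use of strand in counting is not given in the sources used here, so reads from the shared bases cannot be assigned to 1 gene.

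TFAP2B (ENSG00000008196.12), at chr6:50818723-50847613 on the plus strand, was the most abundant member per exon length in control and YA. The control, YA and OA counts were 3177, 1913 and 132, or normalised counts of 2994, 1808 and 148. The OA library was far below the other two. The fold of OA over control was 0.0495 (0.0413 to 0.0589), that is 20.2 times lower, and the fold of YA over control was 0.604 (0.570 to 0.639). YA held 12.2 times as much as OA (10.2 to 14.7).

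RXRG (ENSG00000143171.12), at chr1:165400917-165445355 on the minus strand, had control, YA and OA counts of 708, 487 and 16, or normalised counts of 667, 460.3 and 17.96. The order of the libraries was the same as for TFAP2B, and OA was again far apart. OA alone would have been under the count minimum, which the gene passed through its level in the other 2 libraries. The fold of OA over control was 0.0269 (0.0153 to 0.0440), 37.2 times lower, and that of YA over control was 0.690 (0.614 to 0.775). YA held 25.6 times as much as OA (15.6 to 45.2).

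**Figure D2:**
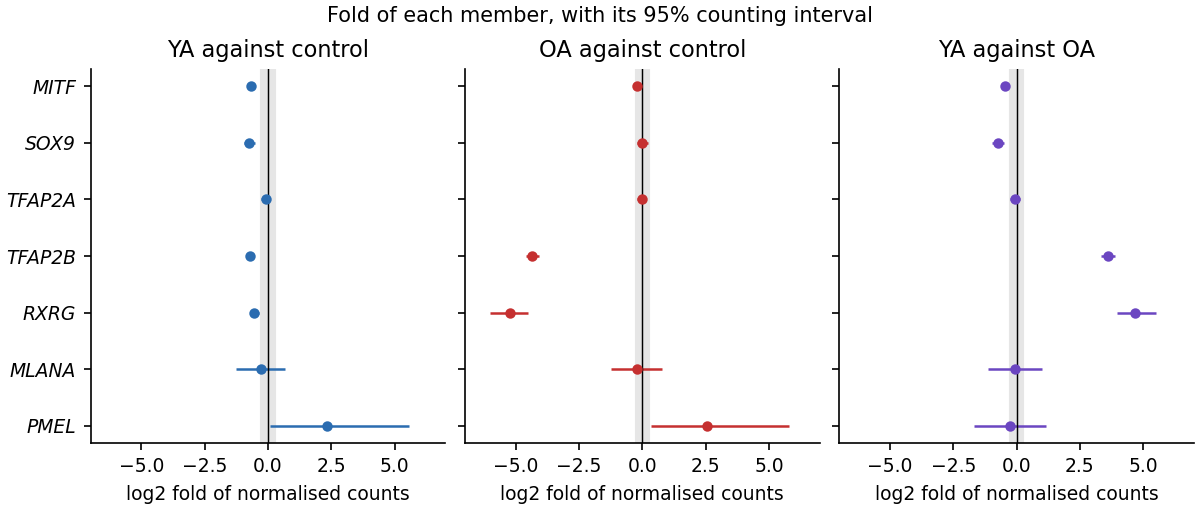
Fold of normalised counts on a log2 scale (horizontal axis) for the 7 members with a fold, for YA against control, OA against control and YA against OA, with 95% counting intervals as bars and the range within 1.2-fold shaded. TFAP2B and RXRG lie at folds of 0.0495 and 0.0269 for OA against control, TFAP2A stays inside the shaded range in each panel, and the bars of MLANA and PMEL are the widest.

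Members and lists were chosen with earlier results of these data known, so their counts, medians and ranks describe the sets and test nothing. Of the 5 members passing the count minimum, 4 were at least 1.2-fold lower in YA than in control and 0 were higher. Over all 14413 genes passing it, 16.4% were that much lower and 17.4% that much higher. In OA against control, 2 members were lower (TFAP2B and RXRG) and 0 higher, where 21.5% of all genes were lower and 21.1% higher. In YA against OA, 2 members were higher (TFAP2B and RXRG) and 2 lower (MITF and SOX9), where 23.0% of all genes were higher and 21.5% lower. The counts were the same when the whole counting interval had to lie beyond 1.2-fold. The median log2 fold (pseudocount 1) of these 5 members was -0.67 for YA against control, -0.22 for OA against control and -0.06 for YA against OA, beside medians of -0.02, 0.01 and -0.01 over all genes tested.

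In the ordering of all 14413 genes by log2 fold of OA over control, RXRG had 5 genes below it and TFAP2B had 13. The place of the members was less extreme in YA against control, where 388 genes lay below SOX9, 393 below TFAP2B, 467 below MITF and 783 below RXRG. In YA against OA, 4 genes lay above RXRG and 21 above TFAP2B, while 727 lay below SOX9 and 1579 below MITF.

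**Figure D3:**
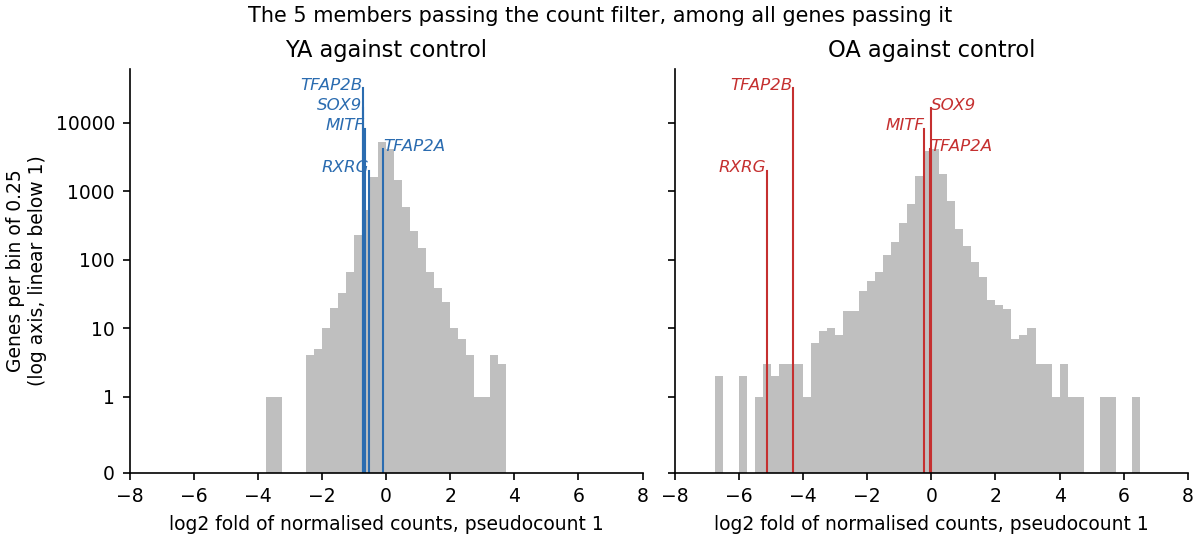
Number of genes (vertical log axis, linear below 1) by log2 fold of normalised counts with a pseudocount of 1 (horizontal axis, bins of 0.25) for the 14413 genes passing the count minimum, in YA against control and OA against control. Lines, whose height has no meaning, mark MITF, SOX9, TFAP2A, TFAP2B and RXRG: RXRG and TFAP2B stand in the lower tail for OA, and 4 of the 5 lie left of most genes for YA.

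Among the melanosome proteins, PMEL (ENSG00000185664.14) had 2 counts in the control library and 10 in each secretome library. The fold was 5.02 for YA over control with an interval from 1.07 to 47.1, and 5.96 for OA over control with an interval from 1.27 to 55.9. YA and OA did not differ beyond counting error, with a fold of 0.842 (0.315 to 2.25). PMEL shares 89 of its 3901 exon bases with CDK2, which had 1345, 1250 and 1422 counts, and reads from the shared bases cannot be assigned to 1 gene.

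MLANA (ENSG00000120215.9) had 22, 18 and 16 counts in control, YA and OA. The folds were 0.821 (0.415 to 1.60) for YA over control and 0.866 (0.425 to 1.73) for OA over control, and both intervals reach from under 0.5 to over 1.5. TYR had 2, 0 and 0 counts, DCT 2, 1 and 2. A count of 0 allows up to 3 counts, or 0.141 CPM (counts scaled to the library total) in YA and 0.166 in OA. The 4 melanosome genes together held 28, 29 and 28 counts in the control, YA and OA libraries, or 1.31, 1.36 and 1.55 CPM. The 6 transcription factors together held 281, 183 and 99.6 CPM. In control, TFAP2B held 3177 and RXRG 708 of their 6035 counts, and in OA they held 132 and 16 of 1802. These sums are not per exon length.

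Ordered by level per exon length, the members in control ran from TFAP2B at 24.1 RPKM through RXRG at 12.2, MITF at 7.93, SOX9 at 5.0 and TFAP2A at 2.86 to MLANA at 0.333, with no overlap of neighbouring intervals. TYR, PMEL, DCT and SOX10 followed at 0.031 or less and could not be put in order. The length is that of all annotated exons of a gene merged, and the intervals carry no error for it. By counts alone, TFAP2A at 507 stood above SOX9 at 422 in control. Which transcripts the cells used was not tested. In YA the order was TFAP2B at 14.6, RXRG at 8.48 and MITF at 4.99, and then SOX9 at 3.02 and TFAP2A at 2.69, whose intervals overlapped. In OA the order was different: MITF stood first at 6.78, followed by SOX9 at 4.99, TFAP2A at 2.79 and TFAP2B at 1.19. RXRG at 0.328 followed without overlap, and MLANA at 0.287 and PMEL at 0.142 each overlapped the member above it in OA.

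The bases before a start show the letters through which such factors are known to bind, and 3 starts are shown because they belong to MITF itself, to a pigment enzyme that MITF regulates and to the member with both a high control level and a large difference. Sequences are those of RefSeq on GRCh38.p14, read 5′ to 3′ on the strand of the gene, cut before the first base that GENCODE 29 places in an exon. Capitals mark motif letters on either strand.
MITF, the most downstream of its 3 listed starts, chr3:69936342-69936586, plus strand: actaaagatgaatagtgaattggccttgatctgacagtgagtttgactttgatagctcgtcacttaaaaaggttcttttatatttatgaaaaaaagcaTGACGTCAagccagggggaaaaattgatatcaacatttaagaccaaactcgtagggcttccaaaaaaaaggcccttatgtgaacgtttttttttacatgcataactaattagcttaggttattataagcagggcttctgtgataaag
DCT, chr13:94479683-94479932, minus strand: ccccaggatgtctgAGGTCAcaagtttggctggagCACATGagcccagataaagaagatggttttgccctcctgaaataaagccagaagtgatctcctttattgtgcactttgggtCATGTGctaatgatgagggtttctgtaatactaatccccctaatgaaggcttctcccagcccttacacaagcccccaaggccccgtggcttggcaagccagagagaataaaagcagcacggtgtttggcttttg
TFAP2B, chr6:50818621-50818722, plus strand: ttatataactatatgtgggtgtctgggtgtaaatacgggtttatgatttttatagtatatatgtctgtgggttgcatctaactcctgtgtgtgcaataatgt

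The search covered the 250 bases before each of 35116 RefSeq starts, on both strands. It used CATGTG, the E-box that MITF favours, CACGTG, the palindromic E-box, TGACGTCA, the cAMP response element, ACAAAG and ACAATG for SOX factors, AGGTCA, the nuclear receptor half-site, and GCCNNNGGC for AP-2 factors. None of the 7 lies within another, although their ends can overlap. They were present in 9.42%, 6.34%, 1.65%, 13.7%, 9.29%, 12.1% and 19.8% of these windows, in that order. Of the members, 7 had an entry, with 11 starts in all, and SOX10, SOX9 and PMEL had none. The MITF start shown, that of the melanocyte form, held TGACGTCA from 152 bases before it. Of its other starts, one held ACAATG from 214 bases before it, and another ACAAAG from 189 and AGGTCA from 43. The DCT start shown held CATGTG letters from 215 and 134 bases before it and AGGTCA from 236. Another DCT start held AGGTCA letters from 228. The TYR start held CATGTG from 104 and 12 bases before it and AGGTCA from 245. A TFAP2A start held AGGTCA from 11 bases before it, and its other start and that of MLANA held none of the 7. TFAP2B held none of the 7 in its 250 bases, and RXRG held AGGTCA letters from 231 bases before its start. A match describes letters only, and MITF was at 1221 counts in control beside 2 counts each for TYR and DCT.

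SOX10 (ENSG00000100146.16), at chr22:37970686-37987422 on the minus strand, was listed at 0 counts in control, YA and OA. Its 3710 exon bases share 89 with POLR2F, a gene on the opposite strand that encodes a subunit of RNA polymerase II. POLR2F was also low for a gene that every cell uses, at 76, 84 and 67 counts or 0.503, 0.560 and 0.526 RPKM, and another subunit gene, POLR2I, was at 0.220, 0.370 and 0.174 RPKM. With any other gene, POLR2F shares 96 of its 7042 exon bases and POLR2I shares 1010 of 1269. The other 10 subunit genes of that enzyme lay between 10.8 and 70.3 RPKM in any library. The flanking genes MICALL1, at 3478, 4139 and 3523 counts, and PICK1, at 363, 388 and 265, were not low. These genes were chosen after the values of SOX10 were seen. ERBB3, a receptor gene known to depend on SOX10 in the Schwann and melanocyte lineages, was present at 11471, 12641 and 6195 counts. It was named after its values were seen. The melanosome genes PMEL, MLANA, TYR and DCT had at most 22 counts in any library. The entry of 0 is given as listed. Whether the transcript was absent, and the cause of the entry, was not tested.

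The families of the members differed in how much of the sum a single gene made up. These sums use the same merged exon lengths, so the shares carry the same limit. TFAP2B made up 26.0% of the summed AP-2 RPKM in control, 18.8% in YA and 2.17% in OA, while TFAP2C, another AP-2 factor, made up 70.6%, 77.0% and 92.1%. TFAP2C itself had 4218, 3825 and 2734 counts, with a fold of 0.910 (0.870 to 0.951) in YA and 0.772 (0.736 to 0.810) in OA over control. The AP-2 sum was 92.7 RPKM in control, 77.6 in YA and 54.6 in OA. TFAP2E had 11, 28 and 14 counts.

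RXRG made up 52.4%, 40.8% and 2.34% of the summed RXR RPKM in the control, YA and OA libraries. The broadly expressed receptors did not share its pattern of levels, with RXRA at 754, 665 and 682 counts and RXRB at 669, 793 and 732. The fold of OA over control was 1.08 (0.970 to 1.197) for RXRA and 1.30 (1.17 to 1.45) for RXRB.

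SOX8, the remaining SOXE factor beside SOX9 and SOX10, had 30, 29 and 0 counts and lay under the count minimum. With its OA count set to 3, OA was at least 8.40-fold lower than control, a bound without a counting interval. MITF held 23.4%, 15.4% and 18.7% of the summed RPKM of the MiT factors, most of which was TFE3, a regulator of lysosomal genes, at 2337, 2444 and 2231 counts. TFEB had 57, 84 and 65 counts and TFEC had 7, 3 and 10.

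**Figure D4:**
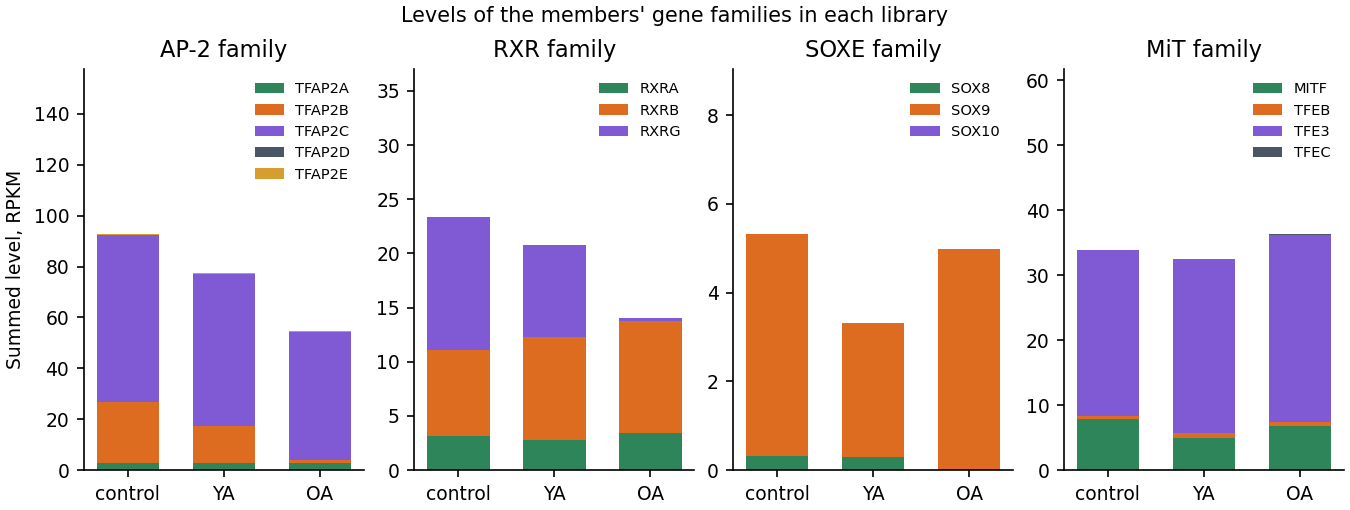
Summed level in RPKM (vertical axis, from 0) of the AP-2, RXR, SOXE and MiT factor families in the control, YA and OA libraries, stacked by gene. The segments of TFAP2B and RXRG shrink to 2.17% and 2.34% of their families in OA, and MITF makes up 23.4%, 15.4% and 18.7% of the MiT sum.

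Of 22 other pigmentation genes, 14 passed the count minimum. In YA against control 3 of the 14 were higher and 6 lower, with a median log2 fold of -0.17, and in OA against control 4 were higher and 3 lower, with a median of 0.07. Over all 14413 genes, 17.4% were higher and 16.4% lower in YA, and 21.1% and 21.5% in OA. The shares for YA against OA were 23.0% and 21.5%. MLPH, which links melanosomes to the cytoskeletal motor, had 142, 224 and 269 counts in control, YA and OA, a fold of 1.58 (1.28 to 1.97) in YA and 2.26 (1.83 to 2.79) in OA. MC1R, the melanocortin receptor upstream of MITF, had 111, 185 and 129 counts and a fold of 1.67 (1.31 to 2.14) in YA. EDNRB, the endothelin receptor of the melanocyte lineage, was lower in both secretomes, at 0.668 (0.591 to 0.754) in YA and 0.660 (0.579 to 0.751) in OA. In YA against OA, 2 were higher and 6 lower, among them QPCT at 0.553 (0.458 to 0.668), with 211, 188 and 286 counts, and RAB38, which sorts melanosome enzymes, at 0.703 (0.603 to 0.820).

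Of 26 other neural crest transcription factors, 24 passed the minimum and went both ways. In YA against control 6 were higher and 8 lower, with a median log2 fold of 0.06, and in OA against control 10 were higher and 9 lower, with a median of 0.07. Over all 14413 genes, 17.4% were higher and 16.4% lower in YA, and 21.1% and 21.5% in OA. SOX11, an embryonic SOX factor, had 3370, 1863 and 432 counts, with a fold of 0.554 (0.524 to 0.587) in YA and 0.153 (0.138 to 0.169) in OA. SNAI2, a factor of neural crest migration, had 59, 37 and 14 counts and a fold of 0.283 (0.146 to 0.512) in OA. POU3F2, known as BRN2, a repressor of MITF in some melanoma states, had 1000, 515 and 385 counts, at 0.516 (0.464 to 0.575) in YA and 0.459 (0.407 to 0.516) in OA.

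The inhibitors of differentiation lay in the other direction. ID3 had 161, 593 and 835 counts, a fold of 3.69 (3.10 to 4.42) in YA and 6.18 (5.21 to 7.36) in OA. ID1 was 1.78 (1.62 to 1.95) times control in YA and 3.32 (3.05 to 3.61) times in OA, and ID2, with 50, 94 and 81 counts, was 1.89 (1.32 to 2.71) and 1.93 (1.34 to 2.80) times control. MSX1, a homeobox factor of the neural plate border, had 232, 253 and 474 counts, and YA held 0.449 (0.384 to 0.525) of OA. FOXD1 had 270, 190 and 325 counts, with YA at 0.492 (0.409 to 0.591) of OA.

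Of 19 neural crest-like surface and Schwann-lineage genes, 14 passed the minimum. YA had 3 higher and 3 lower than control, with a median log2 fold of -0.14, whereas OA had 3 higher and 9 lower, with a median of -0.52. In YA against OA, 9 were higher and 2 lower, with a median of 0.75. Over all 14413 genes, 17.4% were higher and 16.4% lower in YA, and 21.1% and 21.5% in OA. The shares for YA against OA were 23.0% and 21.5%. NGFR, the nerve growth factor receptor that marks the neural crest-like state beside RXRG, was at 0.909 (0.863 to 0.957) in YA and 0.502 (0.470 to 0.536) in OA. CADM3, an adhesion molecule, had 39, 28 and 3 counts and a ratio of 0.0916 (0.0181 to 0.288) in OA. It passed the count minimum through control and YA. S100B was lower in both, at 0.703 (0.632 to 0.782) in YA and 0.777 (0.697 to 0.866) in OA. CDH2, the N-cadherin gene, had 3951, 3109 and 3061 counts and was at 0.789 (0.753 to 0.827) in YA. SEMA3C, a secreted guidance cue, was 1.28 (1.22 to 1.35) times control in YA and 1.42 (1.35 to 1.5) times in OA. YA and OA share the control library, so their values over control are not independent.

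**Figure D5:**
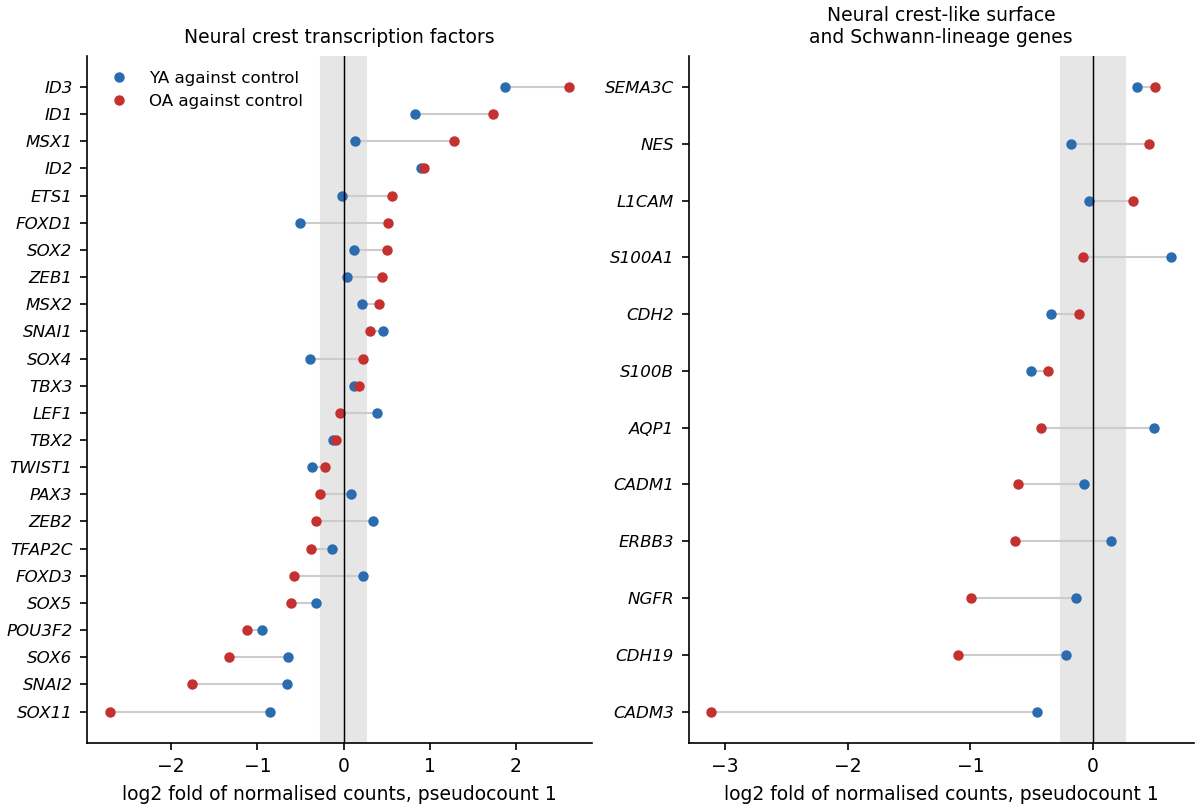
Log2 fold of normalised counts with a pseudocount of 1 (horizontal axis) over control in YA and OA for 24 neural crest transcription factors and 12 of the 14 surface and Schwann-lineage genes passing the count minimum, with the range within 1.2-fold shaded. ID3 stands highest and SOX11 lowest among the factors in OA, and 7 of the 12 surface genes shown lie below the shaded range in OA against 3 in YA. The other 2, not reported by name, are counted in the 9 of 14 given for OA.

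Markers of other cells differed between the libraries as well. The summed Schwann markers, which share genes with the list above, were 101.7, 92.8 and 46.4 CPM in control, YA and OA. The summed fibroblast markers were 42.0, 59.1 and 81.4, of which COL3A1 had 0, 1 and 1 counts, COL1A1 75, 117 and 84, and DCN 13, 138 and 24. COL6A3, at 145, 302 and 886 counts, made up most of the fibroblast sum in OA, while PDGFRA had 76, 20 and 51 and PDGFRB 515, 568 and 334. The summed adipocyte markers were 109.5, 156 and 109.9, with PLIN4 at 284, 579 and 321 counts, LIPE at 79, 153 and 67 and LPL at 353, 583 and 30. Keratinocyte markers summed to 56.5, 52.3 and 66.7, endothelial markers to 11.4, 11.4 and 5.47, and leukocyte markers to 7.23, 7.18 and 5.03. Genes at 0 in all libraries were 2 of 10 adipocyte, 1 of 6 keratinocyte and 2 of 6 leukocyte markers. The part of such cells or transcripts in the values of the members was not tested. In bulk RNA a lower share of cells with a transcript and less of it per cell cannot be told apart.

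The genes nearest to RXRG in the log2 folds of YA and OA over control, by Euclidean distance among 14413 genes, were SLC24A2 with 357, 246 and 8 counts, FREM1 with 230, 162 and 5, and TMEM178B with 291, 159 and 8. Their distances were 0.06, 0.10 and 0.48. TFAP2B ranked 6 in nearness to RXRG, at 0.83. In OA these places rest on few counts, 16 for RXRG and 8, 5 and 8 for its nearest genes. The distances carry no interval for counting error. RXRG and those nearest genes passed the count minimum through control and YA. The genes nearest to MITF were CXADR, LHFP and GJA5, at 0.02, 0.03 and 0.03, with CXADR at 121, 76 and 88 counts. SOX9 ranked 228 in nearness to MITF. Over 3 libraries such likeness rests on 2 values a gene, and SOX10 had no fold to match.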

How the data were processed

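The authors deposited 1 table of raw counts per gene, whole numbers with no normalisation, for 3 libraries. Per the labels, RNA was extracted with a Qiagen kit, poly(A) libraries were made with Agilent SureSelect, sequenced on a NovaSeq, aligned to hg38 with STAR 2.5.1b and counted with featureCounts, with R 3.6.1 listed. Strand use, the handling of reads over several genes and the annotation release are not given in the sources used here.

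Size factors came from DESeq2 1.42.0 in R 4.3.3, the tool the study names. Totals ranged from 18089008 to 21448195 counts, and 99.7% lay in genes whose normalised counts averaged 20 or more. Folds are ratios of normalised counts with 95% Clopper-Pearson intervals (scipy 1.17.1, Python 3.11.15). Calls and medians used log2 with a pseudocount of 1 and a threshold of 1.2-fold, the cutoff the study used, read as linear. No fold was given with both libraries at 3 counts or fewer, and a count of 0 was set to 3. The design as written set ratios with 1 to 3 counts as bounds, and they are given here with their interval. It also set a search for the genes nearest to SOX10, which had no fold to match. RPKM used merged exon lengths of GENCODE 29, matched for 57433 of 58037 identifiers.

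All members were named. From each list of pigmentation, neural crest factor, surface, retinoid and undifferentiated-state genes, up to 3 genes a comparison with the largest log2 fold and an interval beyond 1.2-fold were named, as were paralogues, genes sharing exons with a member, and the 3 genes nearest to MITF and to RXRG. NGFR, ERBB3, ID1 and the genes near SOX10 were named after their values were seen. Some genes that the rule selects are not reported here. Members and lists were chosen with earlier results of these data known. Alternatives were TMM scaling (edgeR 4.0.16), total-count scaling, no count minimum, a minimum of 100, a pseudocount of 5 and other thresholds. The procedure was tested on simulated counts.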

Additional observations from a re-analysis of the deposited data

How the results depend on the processing

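No paired analysis was possible because each group has 1 library. The largest shift among the 21 log2 folds of the members was 0.01 under TMM scaling, 0.01 under total-count scaling and 0.85 under a pseudocount of 5. The fold of SOX9 in OA over control, 0.0030 on the log2 scale and not called, was -0.0105 under TMM and -0.0037 under total-count scaling, and the other 20 kept their direction under all 3. The 6 counts of members past 1.2-fold were unchanged under those 3 settings, under a minimum mean of 100 and when the whole counting interval had to lie beyond 1.2-fold. With no count minimum, the members higher in YA than in control went from 0 to 1, those lower from 4 to 7, those higher in OA than in control from 0 to 1, those lower from 2 to 3, and those lower in YA than in OA from 2 to 3, since members with a few counts then enter. With a 2-fold threshold, or 1.2 read as a log2 value, the members lower in YA than in control went from 4 to 0 and those lower in YA than in OA from 2 to 0. TFAP2B and RXRG alone passed both in OA against control. TYR, DCT and SOX10, with at most 3 counts, had no fold, and PMEL and MLANA had intervals spanning several-fold. The cause of these low counts was not tested.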

Other observations

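Genes of retinoid signalling and metabolism, the pathway in which RXRG acts, were compared beside it. Of 20 listed, 12 passed the count minimum, with 2 higher and 5 lower in YA than in control (median log2 fold -0.09), 6 higher and 2 lower in OA than in control (0.21), and 0 higher and 7 lower in YA than in OA (-0.32). Over all 14413 genes, 17.4% were higher and 16.4% lower in YA, and 21.1% and 21.5% in OA. The shares for YA against OA were 23.0% and 21.5%. RARB, a retinoic acid receptor and itself a known target of the pathway, had 89, 58 and 257 counts in control, YA and OA, a fold of 3.44 (2.69 to 4.43) in OA. RARG had 1408, 1414 and 1669 counts, 1.41 (1.31 to 1.52) times control in OA. ALDH1A3, an enzyme that makes retinoic acid, was at 0.572 (0.551 to 0.594) in YA and 0.667 (0.642 to 0.692) in OA, and RDH10, the enzyme before it, at 0.523 (0.440 to 0.621) in YA. STRA6, a retinol transporter, was 1.64 (1.53 to 1.75) times control in YA and 1.44 (1.34 to 1.55) times in OA.

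All 20 genes of the undifferentiated melanoma state passed the minimum. In YA 5 were higher and 2 lower than control, with a median log2 fold of -0.08, in OA 9 were higher and 5 lower, with a median of 0.14, and in YA against OA 5 were higher and 10 lower, with a median of -0.25. Over all 14413 genes, 17.4% were higher and 16.4% lower in YA, and 21.1% and 21.5% in OA. The shares for YA against OA were 23.0% and 21.5%. TGFBI, a matrix protein, had 2914, 2595 and 6139 counts, 2.51 (2.40 to 2.62) times control in OA, and FOSL1, an AP-1 factor, was at 1.96 (1.91 to 2.01). FN1, fibronectin, was 1.46 (1.40 to 1.52) times control in YA and at 0.543 (0.512 to 0.576) in OA. NT5E, also called CD73, was at 0.629 (0.601 to 0.658) in YA, and JUN was at 0.677 (0.626 to 0.733) in YA and 0.604 (0.554 to 0.658) in OA.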
